A study of Mus musculus with 12 samples.

Results

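The livers of mice fed a starch and sucrose diet with added resveratrol (RS) were compared with the livers of mice fed that diet without it (Ctrl). The 6 arrays whose titles give the resveratrol or the control group, 3 of each, were taken from the 12 arrays of the series. The other 6 arrays, 3 from mice given Dongjin rice (DJ) and 3 from mice given DJ526, a Dongjin rice enriched in resveratrol, entered the fit to estimate the spread and served for the slide check. All mice were female C57BL/6N mice held on a formula diet (NFD) for 6 months, from about 8 weeks of age. The methods describe random assignment of cages to the groups and also a random division of the mice, so that livers of a group may share a cage. In both groups the carbohydrate was corn starch and sucrose, so that added resveratrol is the labelled difference. The dose of resveratrol is not given in the sources used here, and no labels tie a liver to a cage. Per the methods, the 3 livers of a group came from 3 mice, so p-values measure the spread between mice that may share a cage.

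Resveratrol is a plant stilbene. It has been studied as an activator of the NAD-dependent deacetylase SIRT1 and of the energy sensor AMP-activated protein kinase (AMPK). It also binds the aryl hydrocarbon receptor (AhR). When activated, AhR turns on the Cyp1 genes, and whether resveratrol activates or blocks it was not tested here. In the liver resveratrol is conjugated to glucuronic acid and sulfate and exported by ABC transporters. The genes below are therefore taken in the order of the largest differences, the named targets of resveratrol, the enzymes that handle foreign compounds, the chaperones and other housekeeping complexes, lipid and clock genes, and the markers of cell types.

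Values are log2 ratios of the scanner's processed signal to the 75th percentile of signal on the same array, and are called log2 levels. A level of 0 is thus a signal equal to that percentile, and levels of different genes come from different probes and are not compared. A gene was read by its brightest probe. Of 20887 named genes, 15789 were well above background on all 6 arrays, and only these are counted below unless stated. Each of the 6 arrays had 72.4% to 78.9% of its probes well above background, and the 75th percentile of the signal lay between 1007 and 1104.7. Precision is limited by the number of arrays. The 10 hepatocyte markers were all well above background, with a mean log2 level of 7.61, 7.54 and 7.62 in the Ctrl livers and 7.51, 7.66 and 7.71 in the RS livers. The 3 Ctrl arrays lay on slide 1, RS 1 and RS 2 on slide 2 and RS 3 on slide 3, so that no slide held both groups and no difference could be taken within a slide. A sample table of the study lists the array identifiers of RS and DJ the other way round. The groups here follow the titles, and with the exchange 1051 probes were higher and 1006 lower at an unadjusted p under 0.05. The log2 fold change would then be that of the arrays titled DJ, which is -2.54 for Pde5a and 2.94 for Sult2a4, the genes with the largest differences below. A fit with the slide as a block reaches the difference only through the DJ arrays, as DJ 1 lay on slide 1 and DJ 2 and DJ 3 on slide 2. What is particular to the liver DJ 1 thus enters each slide-block value and cannot be told apart from the slide. The fit moved many values. Of 95 genes given with values, it turned the sign of 11, made 33 differences larger by over 1.5 times and made 14 smaller by as much. Over all genes it gave 1026 higher and 1075 lower at an unadjusted p under 0.05.

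No gene passed the test. With limma and Benjamini-Hochberg adjustment, 0 of 39429 probes differed between RS and Ctrl at the threshold of 0.05, and the smallest adjusted p was 0.306, shared by the probes of Cdcp2, Fbxl20 and 1700008J07Rik, all higher in RS. At an unadjusted p under 0.05 there were 1595 probes higher (4.05%) and 771 lower (1.96%) in RS, which is 6% of the probes tested, and the unpaired t-test named in the methods gave 1204 and 771 at that threshold and 0 after adjustment. In genes well above background the numbers were 644 higher (4.08%) and 382 lower (2.42%). The 3 RS values lay wholly above the 3 Ctrl values in 1032 genes (6.54%) and wholly below them in 798 (5.05%), which for 1 gene gives an exact two-sided permutation p of 0.1, the smallest that 3 against 3 allows. Over the 27771 probes well above background the same held for 1914 (6.89%) and 1327 (4.78%). A total of 511 genes met both conditions in the higher direction and 294 in the lower one. The SD of the log2 differences between 2 arrays was 0.372 to 0.528 for the 6 pairs within a group and 0.366 to 0.532 for the 9 pairs of an RS and a Ctrl array.

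The balance of the directions rested on the scaling and on 1 array. Of the probes at an unadjusted p under 0.05, 67.4% were higher in RS, against 47.9% with scaling to the array median (1003 higher and 1091 lower), 55.8% with quantile normalization, 53.8% with normexp background correction, 54.5% with the slide as a fixed block and 53.6% without RS 3. The median log2 fold change of the probes well above background was 0.0187, and -0.0527 with scaling to the median. In the dimmest of 5 equal classes of genes by brightness, RS 3 lay 0.31 above the mean of the Ctrl livers in the median, against -0.024 for RS 1 and 0.0058 for RS 2, and 160 genes were higher and 26 lower at an unadjusted p under 0.05. In the brightest class 102 were higher and 142 lower. Leaving out single arrays made a few calls in limma. Without RS 1, 4 probes were called higher, for Fbxl20 (log2 fold change 0.80, adjusted p 0.048), for Tex11, which was not well above background in Ctrl, and for genes that carry no name here. Without Ctrl 1 a probe of Ssrp1, a histone chaperone subunit, was called higher (2.40, adjusted p 0.00151, against 1.93 and 0.321 with it), which is not the brightest probe of that gene, and without Ctrl 2 that of Lhx8, which was not well above background in RS, was called lower (-2.78, adjusted p 0.0377).

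**Figure D1:**
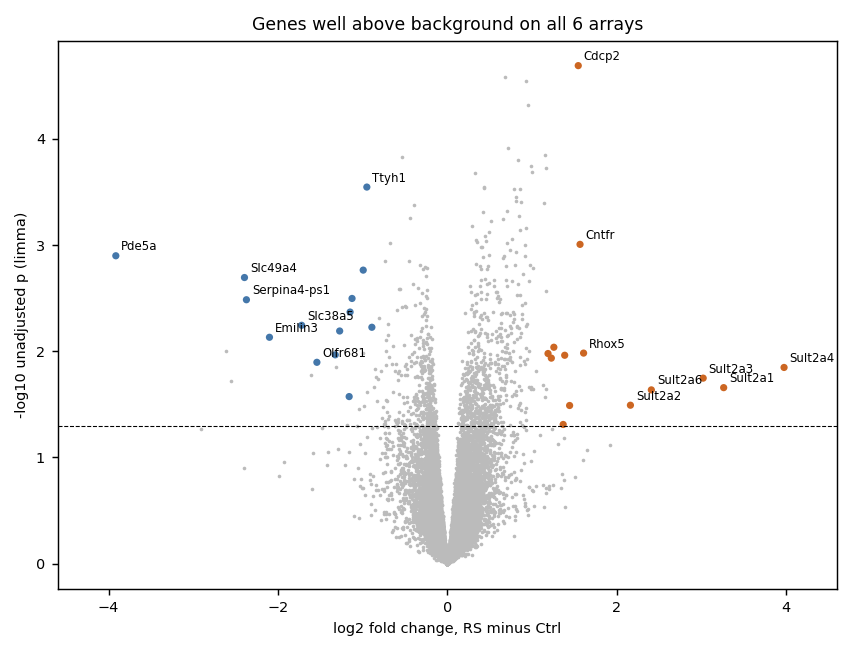
Differences between RS and Ctrl for the 15789 genes well above background on all 6 arrays: log2 fold change (x axis, RS minus Ctrl) against -log10 of the unadjusted limma p (y axis). Orange and blue points are the 14 genes with the largest difference in each direction among those without overlap of the groups and with p under 0.05, grey points are the other genes, and the dashed line is p of 0.05. Pde5a lies farthest out to the left and Sult2a4 to the right, while Cdcp2 has the smallest p.

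The 5 genes with the largest positive differences were all hydroxysteroid sulfotransferases of the Sult2a family, which transfer sulfate to bile acids and steroids. Sult2a4 had log2 levels of 1.08, -0.22 and -0.20 in the Ctrl livers and 5.0, 3.81 and 3.78 in the RS livers. Every RS liver lay above every Ctrl liver, by a log2 fold change of 3.98 ± 1.37 (SE), or 15.7-fold, with a limma adjusted p of 0.691. Sult2a1 differed by 3.26 ± 1.22, Sult2a3 by 3.02 ± 1.09, Sult2a6 by 2.41 ± 0.91 and Sult2a2 by 2.16 ± 0.88, each without overlap. The spread within a rice diet was wider than this difference, since Sult2a4 ranged from -0.85 to 5.29 among the 3 DJ livers, of which DJ 3 lay below all Ctrl livers. The SE above includes that spread, as the fit pools the diets. The SD of Sult2a4 was 0.74 in Ctrl, 0.70 in RS and 3.47 in DJ. With the slide as a block the differences were 7.38 for Sult2a4, 6.41 for Sult2a1, 5.38 for Sult2a3, 4.70 for Sult2a6 and 4.36 for Sult2a2. These larger values rest on the liver DJ 3. For Sult2a4, DJ 1 on slide 1 was at 5.29, and on slide 2 DJ 2 was at 5.03 and DJ 3 at -0.85. The other 4 genes followed Sult2a4 over the 12 arrays, with Pearson r of 0.98 to 1.00, as a description of livers that share slides and diets. These genes are close paralogs, and how far the probe of one reads the RNA of another was not tested.

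Among the other genes higher in RS, Cdcp2, which encodes a protein with CUB domains, had log2 levels of -1.54, -1.33 and -1.0 in the Ctrl livers and -0.16, 0.43 and 0.51 in the RS livers. The groups did not overlap, and the log2 fold change was 1.55 ± 0.22 (limma adjusted p 0.306). Cntfr, a subunit of the receptor for ciliary neurotrophic factor, was at -5.42, -4.71 and -4.30 in the Ctrl livers and -3.58, -2.88 and -3.28 in the RS livers. Its difference of 1.57 ± 0.35 fell short of the adjusted threshold as well (limma adjusted p 0.438). Rhox5, a homeobox gene best known from the reproductive tract, was 1.61 ± 0.52 higher and Tubb2b, a beta-tubulin, 1.39 ± 0.45. Tnfsf8, the ligand of CD30, was 1.37 ± 0.62 higher, with RS 1 at -4.18 and the other RS livers at -5.16 and -5.21. Gm15056 (1.44), Oosp1 (1.26) and Mrgprh (1.23) are dim genes in liver, and Cyp1a1 is described with the AhR genes. All 14 genes of this group kept their direction with the slide as a block, though their sizes moved, to 0.58 for Cntfr and 0.81 for Cdcp2 and to 2.6 for Rhox5, 2.54 for Tubb2b, 3.27 for Tnfsf8, 3.72 for Gm15056 and 2.57 for Oosp1.

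**Figure D2:**
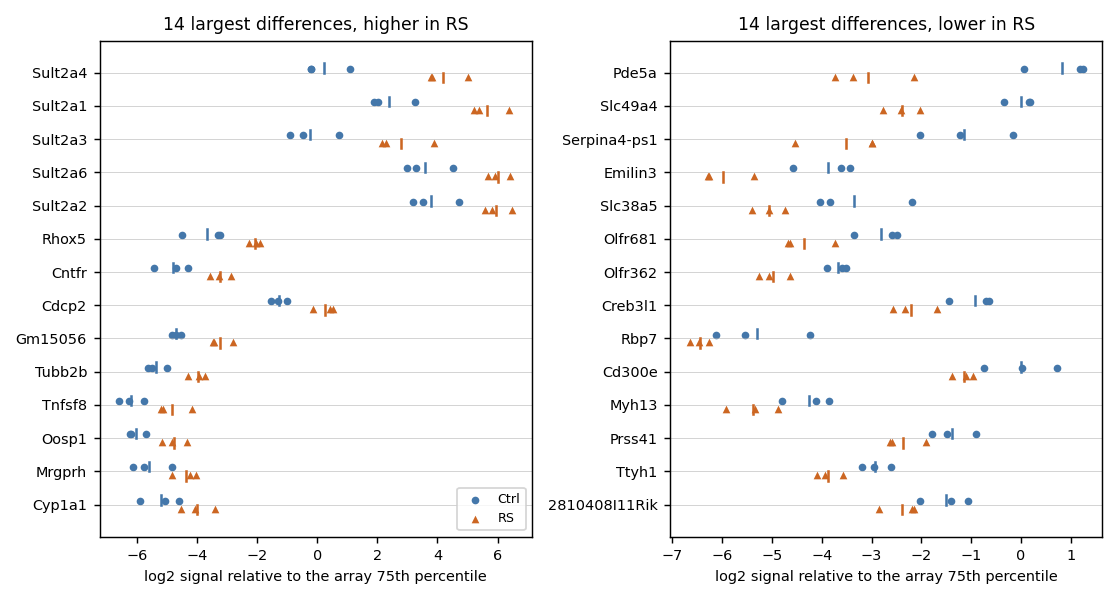
Log2 levels (x axis, log2 signal relative to the array's 75th percentile) of the 14 genes with the largest difference in each direction, 1 gene per row. Blue circles are the 3 Ctrl livers, orange triangles the 3 RS livers and short vertical lines the group means. No RS liver overlaps a Ctrl liver in these rows, which is how the genes were chosen, while the livers of 1 group lie far apart in several rows, such as Slc38a5 and Rbp7 in Ctrl.

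The gene with the largest negative difference was Pde5a, the phosphodiesterase that degrades cyclic GMP. Its log2 levels were 1.19, 1.24 and 0.06 in the Ctrl livers and -3.74, -3.37 and -2.14 in the RS livers. The log2 fold change was -3.91 ± 0.91, or 15.1-fold lower in RS, with a limma adjusted p of 0.466. Slc49a4, a transporter gene also known as Dirc2, was at 0.18, 0.16 and -0.35 in the Ctrl livers and -2.77, -2.41 and -2.02 in the RS livers, a difference of -2.40 ± 0.60. Emilin3, an extracellular matrix glycoprotein, differed by -2.10 ± 0.64, Creb3l1, a membrane-bound transcription factor of the secretory pathway, by -1.27 ± 0.38, and the olfactory receptor genes Olfr681 and Olfr362 by -1.54 ± 0.52 and -1.32 ± 0.43.

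These 6 genes varied as 1 set over all 12 arrays. They were high in the 3 Ctrl livers, in DJ 1 and in the 3 DJ526 livers, and low in the 3 RS livers and in DJ 2 and DJ 3. Pde5a was at 0.98 in DJ 1 but at -3.53 and -2.57 in DJ 2 and DJ 3, and at 0.95 to 1.08 in DJ526. Pearson r with Pde5a over the 12 arrays was 0.98 for Slc49a4, 0.97 for Emilin3 and Creb3l1, 0.96 for Olfr362 and 0.95 for Olfr681, given as a description, since the arrays share slides. RS 1, RS 2, DJ 2 and DJ 3 are the 4 arrays of slide 2, and RS 3 was the low array on slide 3. With the slide as a block the difference was -0.35 for Pde5a and -0.10 for Creb3l1, and it took the opposite sign for Slc49a4 (0.18), Emilin3 (0.33), Olfr681 (0.32) and Olfr362 (0.44). The part of the slide in these differences cannot be told apart from that of the diet. For Pde5a, the difference RS minus Ctrl less the difference DJ526 minus DJ was -6.62 on the log2 scale, with a limma adjusted p of 0.4. In that test 0 of 39429 probes passed the adjusted threshold and 2403 (6.09%) had an unadjusted p under 0.05.

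**Figure D3:**
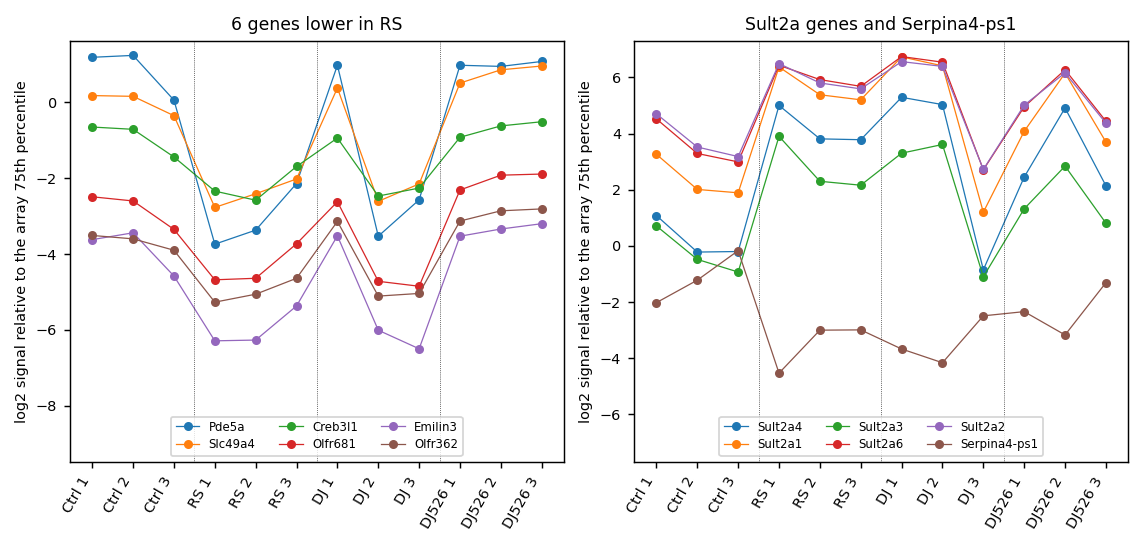
Log2 levels (y axis, log2 signal relative to the array's 75th percentile) on each of the 12 arrays (x axis, dotted lines between the diets; lines join the values of 1 gene and carry no order). Left, the 6 genes with the Pde5a pattern are low in RS 1 to 3, DJ 2 and DJ 3. Right, the Sult2a genes are high in the RS livers, DJ 1 and DJ 2 and low in the Ctrl livers and DJ 3, and Serpina4-ps1 is lower in every RS liver than in every Ctrl liver.

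Other genes lower in RS had their own patterns. Serpina4-ps1, a pseudogene of the serpin cluster, was at -2.02, -1.22 and -0.17 in the Ctrl livers and -4.53, -3.00 and -2.99 in the RS livers, a difference of -2.37 ± 0.63 that was -2.98 with the slide as a block. Slc38a5, which carries glutamine across the membrane, was at -3.83, -4.03 and -2.17 in the Ctrl livers and -5.06, -5.40 and -4.74 in the RS livers. RS was lower by 3.29-fold, and Ctrl 3 stood above the other Ctrl livers. Cd300e, a receptor of monocytes, differed by -1.15 ± 0.32, Ttyh1, an anion channel gene, by -0.95 ± 0.18 (limma adjusted p 0.351), and Prss41, a serine protease, by -0.99 ± 0.24. Rbp7, a retinol-binding protein, was -1.16 ± 0.45, with Ctrl values from -6.12 to -4.23 and RS values from -6.65 to -6.26. Myh13, a myosin heavy chain of eye muscle, had a log2 fold change of -1.12 and 2810408I11Rik one of -0.89. Of the 28 genes with the largest differences, 24 kept their direction with the slide as a block and 9 kept their size within 1.5 times, and Slc38a5 then differed by -2.46 and Myh13 by -1.69.

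Sirt1, the catalytic AMPK subunits and Ppargc1a, the genes most often tied to resveratrol, differed by less than 2 SE, and several moved with the slide block. Sirt1 had log2 levels of 0.17, 0.20 and 0.21 in the Ctrl livers and -0.12, 0.11 and 0.06 in the RS livers. All RS livers lay below all Ctrl livers, but the log2 fold change was only -0.17 ± 0.11 (limma adjusted p 0.928) and was 0.20 with the slide as a block. In the list of sirtuins and NAD synthesis, 1 of 19 genes was higher and 1 lower at an unadjusted p under 0.05 (5.26% each, with 4.08% and 2.42% over all genes). These were Afmid, which converts formylkynurenine on the way from tryptophan to NAD (0.41 ± 0.12), and Nadsyn1, the NAD synthetase (-0.21 ± 0.08). The catalytic subunits of AMPK were at -0.85, -0.68 and -0.73 in Ctrl and -0.75, -0.68 and -0.69 in RS for Prkaa1, a difference of 0.05 ± 0.08. Prkaa2 differed by -0.02 ± 0.11, and the log2 fold change of Ppargc1a, the coactivator of mitochondrial biogenesis, was -0.20 ± 0.24. The other Ppargc1a probe well above background did not share this direction. In the slide-block fit the values were 0.17 for Prkaa1, 0.27 for Prkaa2, -0.94 for Ppargc1a, 0.60 for Afmid and -0.46 for Nadsyn1, and the list of sirtuins and NAD synthesis then had 1 higher and 5 lower and a median of -0.26, against -0.029 without the block. None of the 16 genes of AMPK, its kinases and PGC-1 had an unadjusted p under 0.05 or groups without overlap, and the slide block gave 1 higher and 2 lower. RNA levels of a kinase or deacetylase do not measure its activity.

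Receptors for foreign compounds and the targets of AhR held, with the sulfotransferases, the largest share of genes higher in RS among the lists of at least 14 members plotted. Of 18 members, 6 were higher and 0 lower at an unadjusted p under 0.05, or 33.3% against 4.08% of all genes. The RS livers lay wholly above the Ctrl livers in 4 (22.2%, against 6.54% of all genes). The median log2 fold change of the list was 0.18, against 0.012 for all genes, while the slide block gave 0.13 and counts of 3 higher and 0 lower. Cyp1a2, the constitutive Cyp1 enzyme of hepatocytes, was at 1.11, 1.24 and 1.69 in the Ctrl livers and 1.78, 2.14 and 2.5 in the RS livers. This was 1.73-fold higher in RS (0.79 ± 0.23, limma adjusted p 0.583), with RS 3 the highest. Cyp1a1, the inducible enzyme that marks AhR activity, was dim, at -5.08, -4.62 and -5.91 in the Ctrl livers and -4.07, -4.54 and -3.42 in the RS livers. It was 2.28-fold higher (1.19 ± 0.39), with Ctrl 2 and RS 2 nearly level. Cyp1b1 differed by 0.54 ± 0.47 with overlapping groups. The slide-block values were 1.21 for Cyp1a2 and 2.27 for Cyp1b1.

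The receptors themselves were among the members with an unadjusted p under 0.05. Nr1i2, the pregnane X receptor, differed by 0.38 ± 0.14 without overlap, and by -0.08 with the slide as a block. Nr1i3, the constitutive androstane receptor, differed by 0.49 ± 0.21 and Ahr by 0.34 ± 0.14, both with overlap of the groups, and the slide block put them at 1.01 and 0.12. Ces1g, a carboxylesterase, was at 3.46, 3.21 and 2.92 in the Ctrl livers and 4.01, 3.44 and 3.60 in the RS livers, a difference of 0.49 ± 0.17 with RS 2 just inside the Ctrl range. No member passed the adjusted test.

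The core of the xenobiotic response element to which AhR binds, GCGTG on either strand, was searched in the RefSeq promoter windows (250 bases before to 50 after the start of a gene, GRCm38.p6). It was held by 9500 of 27025 genes (35.2%), by 6 of the 16 list members with a window and by 1 of the 5 with an unadjusted p under 0.05, which was Cyp1a1. The window of Cyp1a1 is shown because this gene had the largest difference of the list. It lies on the plus strand at chr9:57697363-57697662, with the core in capitals:
Cyp1a1: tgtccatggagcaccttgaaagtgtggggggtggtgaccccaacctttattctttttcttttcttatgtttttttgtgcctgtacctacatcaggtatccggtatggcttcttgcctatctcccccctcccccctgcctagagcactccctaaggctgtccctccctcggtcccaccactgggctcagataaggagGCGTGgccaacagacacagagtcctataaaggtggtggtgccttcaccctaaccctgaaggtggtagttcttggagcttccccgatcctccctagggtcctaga

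The window of Cyp1a2 did not hold these letters. A match is a description of the sequence and not a bound site, and no match says nothing of elements farther from the start.

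Lists of conjugation and export genes differed in their counts, to be read against 4.08% higher and 2.42% lower over all genes. In the list of sulfotransferases and sulfate supply, 7 of 21 genes were higher and 0 lower at an unadjusted p under 0.05. The slide block gave 5 higher and 2 lower, and the list median was 0.30 without it. All RS livers lay above all Ctrl livers in the same 7 genes (33.3%, against 6.54% of all genes). Beside the Sult2a genes above, these were Papss2, which makes the sulfate donor PAPS, at 5.20, 5.58 and 5.59 in the Ctrl livers and 5.76, 6.17 and 6.16 in the RS livers, and Sult2a8 (0.38 ± 0.17). The difference of Papss2 was 0.58 ± 0.15 (limma adjusted p 0.531) and 0.35 in the slide-block fit. Cytochrome P450 genes of families 1 to 3 counted 5 higher (10.2%) and 1 lower (2.04%) of 49, with Cyp2g1 at 0.97 ± 0.36. Among hepatic transporters, 4 of 31 were higher (12.9%) and 0 lower, against 5 higher and 3 lower with the slide as a block.

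Abcc4, which exports sulfated bile acids and drug conjugates to the blood, was at -1.18, -1.65 and -1.69 in the Ctrl livers and -0.14, -0.87 and -0.75 in the RS livers. RS was 1.89-fold higher (0.92 ± 0.21, limma adjusted p 0.438), and RS 1 was the highest liver. Abcd2, a peroxisomal fatty acid transporter, differed by 0.49 ± 0.11 without overlap. The sterol exporters Abcg5 and Abcg8 differed by 0.34 ± 0.14 and 0.45 ± 0.16, where RS 1 lay within the range of Ctrl. The UDP-glucuronosyltransferases, which make the glucuronides of resveratrol, had 0 of 16 genes at an unadjusted p under 0.05 and a median of 0.035. The glutathione S-transferases had 1 of 24 higher (4.17%, against 4.08% of all genes), the membrane-bound Mgst3 (0.32 ± 0.12). In 4 the RS livers lay wholly above the Ctrl livers (16.7%, against 6.54% of all genes). Of 24 genes of the Nrf2 pathway, 1 was higher, which was Abcc4 itself, and 1 lower.

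**Figure D4:**
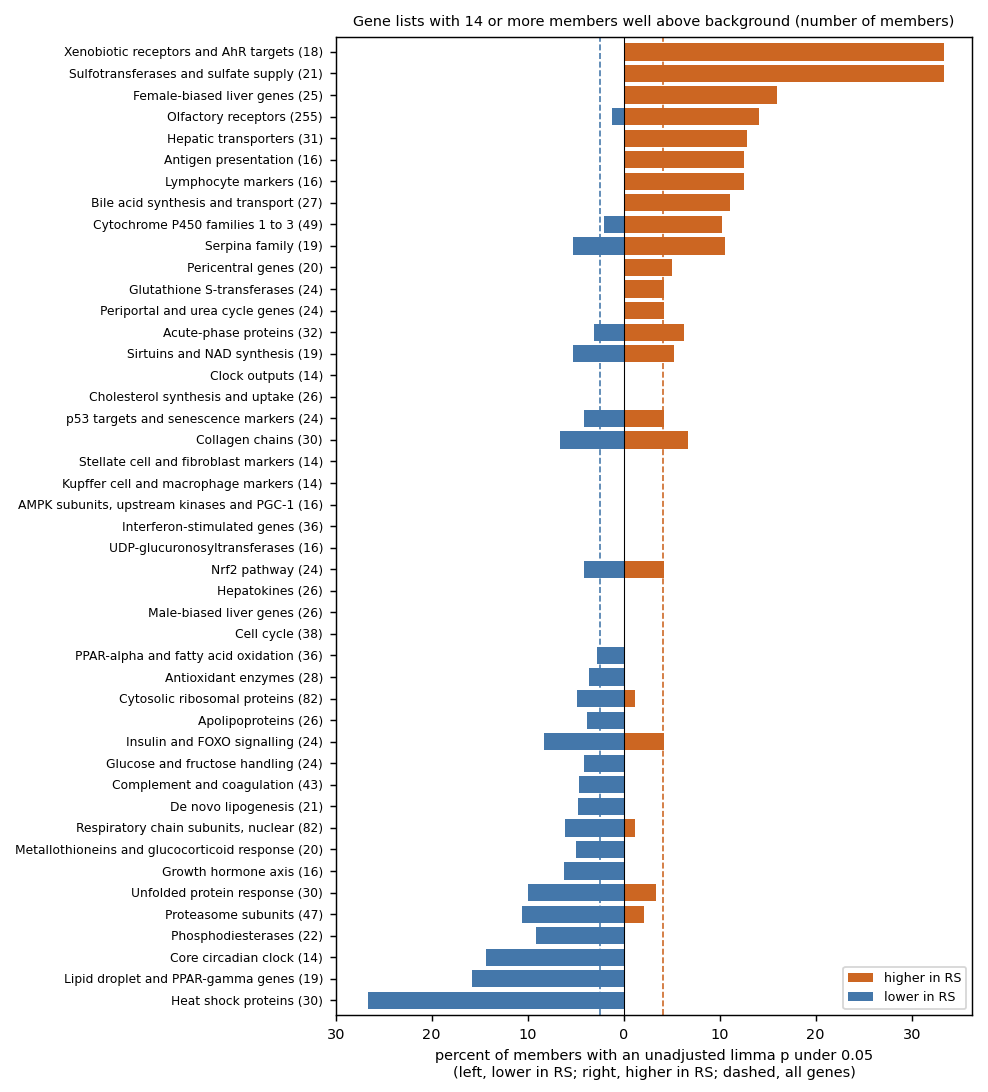
Share of each gene list (rows, number of members well above background on all 6 arrays in brackets) with an unadjusted limma p under 0.05, in percent (x axis), to the right for members higher in RS and to the left for members lower in RS. Dashed lines are the shares over all 15789 genes, 4.08% higher and 2.42% lower. The longest bars to the right are the xenobiotic receptors and the sulfotransferases (33.3% each) and the longest to the left is that of the heat shock proteins (26.7%).

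Heat shock proteins, the chaperones that hold and refold other proteins, held the largest share of members lower in RS among the lists of at least 14 members plotted. Of 30 members, 8 were lower and 0 higher at an unadjusted p under 0.05 (26.7% against 2.42% of all genes), and the median log2 fold change was -0.15. The RS livers lay wholly below the Ctrl livers in 5 (16.7%, against 5.05% of all genes). They lay wholly above in 1 (3.33%, against 6.54%). With the slide as a block, 2 were lower and 1 higher at that threshold and the list median -0.066. Leaving out 1 liver at a time, the median ran from -0.19 without RS 1 to -0.11 without RS 3. The mean log2 level of the list was 2.12, 2.15 and 2.16 in the Ctrl livers and 2.07, 2.01 and 1.93 in the RS livers, so that RS 1 lay nearest to Ctrl.

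The cytosolic chaperone Hsp90aa1 was at 4.19, 4.02 and 3.88 in the Ctrl livers and 3.94, 3.40 and 3.26 in the RS livers. The difference was -0.50 ± 0.18, and RS 1 lay within the Ctrl range. The small heat shock protein Hspb1 was at 4.34, 4.2 and 4.53 in the Ctrl livers and 4.47, 3.67 and 3.32 in the RS livers, a difference of -0.53 ± 0.24 that was 0.02 with the slide as a block. Hspe1, the mitochondrial co-chaperonin, was at 5.93, 5.88 and 5.78 in the Ctrl livers and 5.58, 5.47 and 5.57 in the RS livers. This small difference, -0.33 ± 0.10, came without overlap. Hspa4l (-0.40), Hsph1 (-0.36) and Chordc1 (-0.32) did not overlap either, while Stip1 (-0.33), which links HSP70 to HSP90, and Hsp90ab1 (-0.18) did. No member passed the adjusted test.

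Heat shock factor binds inverted repeats of GAA. The letters GAANNTTC or TTCNNGAA, each its own reverse complement, were found in the promoter window of 17% of 27025 genes, of 13 of the 23 members of the list with a window (56.5%) and of 4 of the 6 lower members with one. Among the members with a higher unadjusted p the count was 9 of 17 (52.9%). Windows are shown for these 4 genes, the lower members that held a match, and Hsph1 has 2 windows, of which 1 is shown. Each match is in capitals, where matches that overlap run into each other. They lie at chr1:55087898-55088197 (Hspe1, plus strand), chr9:18292017-18292316 (Chordc1, plus), chr5:135887669-135887968 (Hspb1, plus) and chr5:149636287-149636586 (Hsph1, minus):
Hspe1: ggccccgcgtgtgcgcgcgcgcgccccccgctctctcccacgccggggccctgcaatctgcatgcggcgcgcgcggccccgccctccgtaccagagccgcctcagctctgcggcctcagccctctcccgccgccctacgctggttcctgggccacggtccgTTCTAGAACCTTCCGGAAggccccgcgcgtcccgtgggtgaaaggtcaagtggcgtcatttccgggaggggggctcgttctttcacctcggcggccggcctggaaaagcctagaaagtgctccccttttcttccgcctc
Chordc1: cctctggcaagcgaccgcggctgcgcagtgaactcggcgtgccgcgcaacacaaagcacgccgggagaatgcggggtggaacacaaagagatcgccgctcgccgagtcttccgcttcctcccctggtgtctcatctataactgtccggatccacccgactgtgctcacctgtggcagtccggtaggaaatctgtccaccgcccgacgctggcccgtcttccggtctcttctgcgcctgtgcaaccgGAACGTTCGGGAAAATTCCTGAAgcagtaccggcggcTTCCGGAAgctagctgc
Hspb1: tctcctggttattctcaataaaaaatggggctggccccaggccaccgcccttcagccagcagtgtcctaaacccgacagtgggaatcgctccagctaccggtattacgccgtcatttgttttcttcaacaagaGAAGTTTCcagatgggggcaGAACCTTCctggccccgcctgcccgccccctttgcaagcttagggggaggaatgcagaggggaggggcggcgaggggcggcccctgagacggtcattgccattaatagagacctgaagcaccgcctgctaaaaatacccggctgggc
Hsph1: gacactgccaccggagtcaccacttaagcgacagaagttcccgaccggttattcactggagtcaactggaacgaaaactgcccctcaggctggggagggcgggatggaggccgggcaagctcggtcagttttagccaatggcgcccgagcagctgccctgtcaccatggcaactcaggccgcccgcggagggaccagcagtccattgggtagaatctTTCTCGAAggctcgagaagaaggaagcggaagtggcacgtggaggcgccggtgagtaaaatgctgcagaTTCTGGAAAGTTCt

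Hspe1 held 3 matches and Chordc1 5, in runs that share their ends, Hsph1 held 3 and Hspb1 2. Binding was not measured.

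In other complexes of protein turnover and energy supply no member passed the adjusted test. The proteasome, respiratory chain, ribosome and unfolded protein response lists held larger shares lower in RS at an unadjusted p under 0.05 than all genes (2.42%). In the brightest of the 5 brightness classes (log2 levels of 2.07 to 9.27) the shares were 4.5% lower and 3.23% higher. The mean log2 levels of the proteasome, respiratory chain and ribosome lists lay within that class. Of 47 proteasome subunits, 5 were lower (10.6%) and 1 higher at that threshold. A total of 11 lay wholly below the Ctrl livers (23.4% against 5.05% of all genes), with 0 above. The slide block gave 3 higher and 10 lower and a median of -0.22, against -0.086 without it. Psmc1, an ATPase of the regulatory particle, was at 5.30, 5.28 and 5.31 in the Ctrl livers and 5.09, 5.0 and 5.09 in the RS livers. The difference was -0.24 ± 0.06, or 1.18-fold. The catalytic subunit Psmb6 differed by -0.24 ± 0.07 and the activator Psme4 by -0.33 ± 0.12, values that the slide block put at -0.03 and -0.17. The higher member was the immunoproteasome subunit Psmb10 (0.26 ± 0.11). Nuclear genes of the respiratory chain counted 5 lower (6.1%) and 1 higher of 82 (0 higher and 2 lower in the slide-block fit). Of the 82, 14 lay wholly below the Ctrl livers (17.1%, against 5.05% of all genes) and 3 wholly above. Ndufa12 of complex I differed by -0.28 ± 0.10.

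Ribosomal protein genes counted 4 lower and 1 higher, Rps21, of 82 at an unadjusted p under 0.05. The share lower was 4.88%, against 2.42% of all genes and 4.5% of the brightest class, and so near that of the class. Of the 82, 14 lay wholly below the Ctrl livers (17.1%, against 5.05% of all genes) and 4 wholly above. Rps21 was at 5.11, 5.19 and 5.20 in the Ctrl livers and 5.43, 5.57 and 5.47 in the RS livers, a difference of 0.32 ± 0.06 against -0.32 ± 0.09 for Rpl36a. With the slide as a block no ribosomal protein gene was lower at an unadjusted p under 0.05. The unfolded protein response had 3 lower (10%) and 1 higher of 30 at an unadjusted p under 0.05. Among them were the transcription factors Xbp1 (-0.34 ± 0.13) and Atf5 (-0.34 ± 0.14), both lower. The slide block gave 1 higher and 0 lower and a median of -0.22. Without the block the medians of these lists lay between -0.086 and -0.0055, and scaling to the array median put the medians lower, at -0.16 for the proteasome and -0.0594 for all genes.

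Lipogenic genes differed more between livers of 1 group than between the groups. The 21 genes of fatty acid synthesis had a mean log2 level of 3.33, 4.70 and 4.48 in the Ctrl livers and 3.28, 4.02 and 4.39 in the RS livers. Ctrl 1 and RS 1 were low and the other 4 high. Elovl6, which lengthens palmitate, was at 4.03, 6.30 and 6.35 in the Ctrl livers and 3.41, 5.62 and 5.79 in the RS livers. Fatty acid synthase, Fasn, was at 1.94, 4.34 and 4.36 in the Ctrl livers and 2.06, 3.10 and 3.87 in the RS livers. The group differences were -0.62 ± 0.79 and -0.54 ± 0.70, with SEs larger than the differences, and -0.65 ± 0.53 for acetyl-CoA carboxylase, Acaca. The median of the list was -0.23, and ranged from -0.75 without Ctrl 1 to 0.085 without RS 1. The slide block put the median at -0.95, with 3 members lower at an unadjusted p under 0.05, and the values were -1.93 for Fasn, -1.52 for Elovl6, -1.44 for Acaca and -1.18 for Elovl5. Elovl5, which lengthens polyunsaturated fatty acids, was the only member with an unadjusted p under 0.05 without the block (-0.57 ± 0.24).

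Lipid droplet genes counted 3 lower (15.8%, against 2.42% of all genes) and 0 higher of 19, and 2 lower with the slide as a block. Cidea, a droplet protein that accompanies fat storage, was at -0.53, -2.85 and -5.43 in the Ctrl livers and -5.04, -5.61 and -5.81 in the RS livers. Its large difference of -2.55 ± 0.93 rested on Ctrl 1 and Ctrl 2, while Ctrl 3 lay among the RS livers. Fabp4, a fatty acid carrier of adipocytes and macrophages, differed by -0.62 ± 0.22 and Mgll, which splits monoglycerides, by -0.41 ± 0.17, all with overlap. The list median was -0.12, 0.0042 without Ctrl 1 and -0.33 in the slide-block fit. Targets of PPAR-alpha, cholesterol synthesis and uptake, and glucose and fructose handling had 0 genes higher and 1, 0 and 1 lower of 36, 26 and 24, against 0, 3 and 5 lower with the slide as a block.

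Clock genes set 1 liver apart. Arntl, which encodes the clock activator BMAL1, was at -2.62, 0.50 and -1.88 in the Ctrl livers and -1.22, -2.43 and -1.72 in the RS livers, and its output Dbp at 5.32, 2.32 and 4.63 in the Ctrl livers and 4.46, 4.78 and 4.49 in the RS livers. Ctrl 2 was the highest for Arntl and the lowest for Dbp of the 6 livers. The group differences, -0.46 ± 0.87 and 0.48 ± 0.70, took the opposite sign without Ctrl 2 (0.46 and -0.40) and with the slide as a block (1.56 and -0.58). The hour of sampling is not given in the sources used here. Rora differed by -0.43 ± 0.15, with RS 3 within the Ctrl range.

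Among secreted and hormone-controlled genes, Hamp, which encodes the iron hormone hepcidin, was at 6.09, 6.71 and 5.57 in the Ctrl livers and 7.10, 7.56 and 7.22 in the RS livers. RS was 2.25-fold higher (1.17 ± 0.30, limma adjusted p 0.531) without overlap, and the slide block gave 1.5. The acute-phase list as a whole had 2 higher of 32 (6.25%, against 4.08% of all genes), with Saa4 (0.51 ± 0.23) beside Hamp. It had 1 lower (3.13%, against 2.42%) and a median of 0.007. Igfbp2, a carrier of insulin-like growth factors, differed by -0.47 ± 0.16 without overlap and was the only gene of 16 in the growth hormone axis at an unadjusted p under 0.05 (-0.25 with the slide block). Of 25 genes known to be higher in female liver, 4 were higher in RS (16%, with 4.08% over all genes) and 0 lower, against 5 higher and 3 lower with the slide as a block. The 4 were Sult2a1, Sult2a2, Abcd2 and the monocarboxylate transporter Slc16a5 (0.68 ± 0.20). Male-biased genes had 0 of 26 in either direction, and 0 higher and 2 lower in the slide-block fit.

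**Figure D5:**
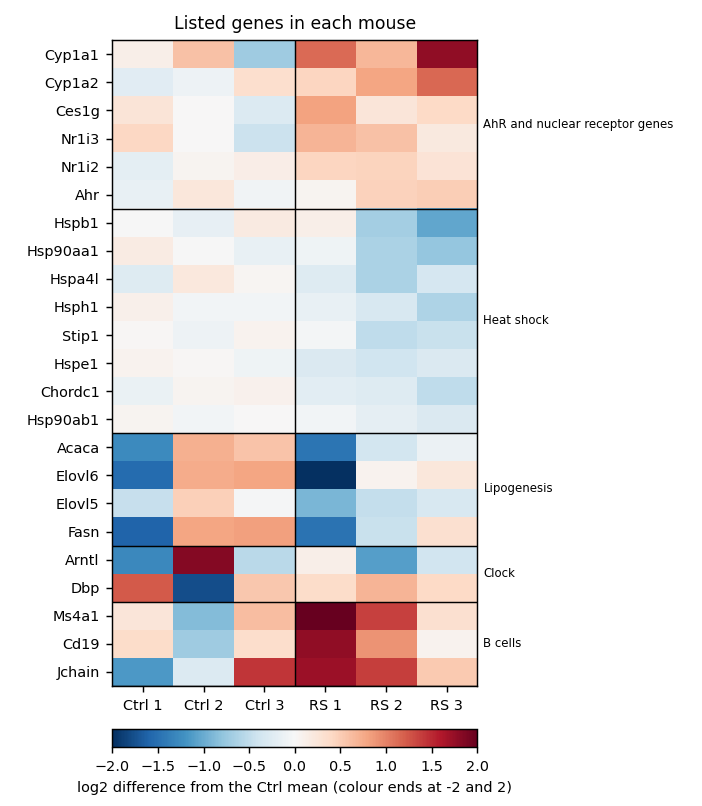
Log2 difference from the mean of the 3 Ctrl livers (colour, ending at -2 and 2) for 23 genes (rows) in each of the 6 livers (columns, Ctrl left and RS right of the vertical line). The AhR and receptor genes are mostly red and the heat shock genes mostly blue in RS, the latter more in RS 2 and RS 3 than in RS 1. The lipogenic genes are blue in Ctrl 1 and RS 1, the clock genes stand apart in Ctrl 2, and the B cell genes are reddest in RS 1.

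Markers of other cells of the liver varied from liver to liver. Fewer cells of a type and less RNA per cell cannot be told apart in bulk tissue. Of the 14 Kupffer cell and macrophage markers with a probe, all were well above background, 0 had an unadjusted p under 0.05 and the median log2 fold change was -0.29. Their summed level, in units of the 75th percentile, was 111 to 191 in Ctrl and 99.7 to 135 in RS. Cd5l, a secreted macrophage protein, was at 5.30, 5.05 and 5.88 in the Ctrl livers and 5.29, 4.72 and 4.49 in the RS livers. Of the 17 lymphocyte markers with a probe, 16 were well above background, and 14 of these had a higher mean in RS. At an unadjusted p under 0.05, 2 were higher (12.5%, against 4.08% of all genes) and 0 lower. The groups did not overlap for 3, all higher (18.8%, against 6.54% of all genes). The median was 0.38. In the slide-block fit it was 1.22, with 9 higher, against 1026 higher of all 15789 genes. Those slide-block values depend on the liver DJ 1, the only DJ liver on slide 1. The summed level of the markers was 23.9 to 42.7 in Ctrl and 37.4 to 50.3 in RS. B cell genes were highest in RS 1, where Ms4a1, which encodes CD20, was at -0.72, against -2.83, -3.94 and -2.46 in Ctrl and -1.71 and -2.75 in the other RS livers.

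The class II gene H2-Ab1 was highest in RS 1 as well, at 4.90, with Ctrl at 3.88, 3.28 and 3.55. Of 16 antigen presentation genes, 15 had a higher mean in RS and 2 were higher at an unadjusted p under 0.05 (12.5%, against 4.08% of all genes). With the slide as a block 6 were higher, against 1026 of all 15789 genes. In the same fit Ms4a1 differed by 5.24 and H2-Ab1 by 2.01. The cell cycle list had 0 of 38 genes at an unadjusted p under 0.05. It had 5 without overlap, all higher (13.2%, against 6.54% of all genes), among them Top2a (1.13 ± 0.79). Its median was 0.16. The slide block put it at 1.09, where 20 of its genes were higher and 0 lower at an unadjusted p under 0.05. Over all 15789 genes that fit gave 1026 higher and 1075 lower. It takes the step from slide 1 to slide 2 from DJ 1 against DJ 2 and DJ 3. Traits of the single liver DJ 1 thus enter the slide-block values of these lists, and their part was not tested. Of the 8 neutrophil markers with a probe, 5 were well above background. Their mean log2 level was highest in Ctrl 3 (1.33) and their summed level in RS 3, with sums of 78.3 to 118 in Ctrl and 77.4 to 131 in RS, and S100a8 was at -1.23, -1.97 and 0.97 in the Ctrl livers and -0.94, -2.50 and -1.81 in the RS livers. The part of these cells in the differences above was not tested. Col6a3, a collagen chain, differed by 0.64 ± 0.18 without overlap, and Lmnb1, the nuclear lamin B1, by 0.62 ± 0.19.

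Some genes were well above background in 1 group only. There were 14 such genes in RS and 8 in Ctrl. Dnal1, an axonemal dynein light chain, was at least 1.88-fold higher in RS and the olfactory receptor gene Olfr493 at least 2.00-fold. Cdh10, a cadherin of brain, was at least 1.94-fold higher in Ctrl, with Ctrl 2 at -4.49 and the other Ctrl livers at -6.56 and -7.01. These bounds set the bright group against the lowest signal well above background on each array, or the gene's own signal where that was higher.

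Olfactory receptor genes, known for odour sensing in the nose, were read as a set of mostly dim probes. Of 1062 with a probe, 255 were well above background, of which 36 were higher (14.1%) and 3 lower (1.18%) at an unadjusted p under 0.05. The shares were 4.08% and 2.42% over all genes, and 5.07% and 0.823% in the dimmest of the 5 brightness classes. The median log2 fold change of the olfactory receptor genes was 0.18, and 0.011 without RS 3. The slide block gave 6 higher and 2 lower at that threshold. Their mean log2 level was -4.41, -4.65 and -4.58 in the Ctrl livers and -4.62, -4.50 and -4.01 in the RS livers, so that RS 3 alone lay above all Ctrl livers. Olfr424 was at -3.39, -3.53 and -3.33 in the Ctrl livers and -2.71, -2.33 and -1.77 in the RS livers, a difference of 1.15 ± 0.20 without overlap.

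The study chose 12 genes for qRT-PCR on the basis of these arrays, so that they are no independent sample. Of the 11 with a named probe, 8 were well above background on all 6 arrays, and Sult2a4, Sult2a1, Sult2a6, Pde5a and Slc49a4 are given above. Ap3b2, an adaptor subunit of neurons, was well above background on 1 RS array and on no Ctrl array. Pnoc, the precursor of nociceptin, was so on all Ctrl arrays and 1 RS array, with values of -6.46, -5.50 and -6.17 in the Ctrl livers and -9.14, -6.14 and -7.14 in the RS livers. The groups overlapped, and the log2 fold change was -1.43 ± 0.64.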

How the data were processed

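Liver RNA of 12 arrays was measured on 1-colour (Cy3) Agilent 4x44K mouse arrays. Per the file headers, the authors deposited processed signal intensity from Feature Extraction 11.5.1.1, which is background-subtracted and not scaled between arrays, and a second table of globally normalized intensity, which is used as an alternative. Groups follow the sample titles. Control spots were left out (43020 spots kept), spots of a probe were averaged (39429 probes), and the log2 of the deposited intensity minus log2 of the array's 75th percentile was tested with limma 3.58.1 in R 4.3.3. The fit held 4 group means over 12 arrays, eBayes with a mean trend, and Benjamini-Hochberg adjustment over all probes at 0.05. It left 8 residual degrees of freedom, and 27 probes lacked a value on some of the 6 arrays. Tables and plots were made with Python 3.11.15, pandas 2.3.3, numpy 2.4.6 and matplotlib 3.10.9, and the steps were tested on simulated data.

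A probe counts as well above background where at least 0.5 of its spots carry that flag of the scanner software. Of the probes, 27511 carried a gene name (69.8%), 3 of them through primer accessions, 11918 had none here, and 0 spots were saturated. The genes named were those called in any fit, the 14 with the largest difference in each direction among those well above background on all 6 arrays, without overlap and at an unadjusted p under 0.05, the largest bounds of genes above background in 1 group, up to 4 members with the largest differences in each gene list, the usual resveratrol targets and the genes of the qRT-PCR. Papss2, Sult2a8, Ces1g, Nr1i2, Ahr, Abcg5, Hspe1, Chordc1, Stip1, Hsp90ab1, Psmc1, Psmb6, Psmb10, Mgll, Slc16a5 and Olfr424 were chosen after their values were seen. The members and the gene lists were chosen with earlier results of these data known. Alternatives covered background correction, scaling, spatial trend, dim probes, the variance model, the slide, the replicate number, the t-test of the methods, the choice of probe and each array left out. The sources disagree on the RNA extraction kit.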

Additional observations from a re-analysis of the deposited data

How the results depend on the processing

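Of 95 genes given with values, 82 kept their direction under all 22 alternatives run for genes, and 1984 of 2003 values did. Fbxl20 and Tex11 were called without RS 1 and Lhx8 without Ctrl 2, as was another probe of Ssrp1 without Ctrl 1, and the slide block moved 47 genes by over 1.5 times in the same direction. With the slide as a fixed block the log2 fold change took the opposite sign for Slc49a4 (0.18), Emilin3 (0.33), Olfr681 (0.32), Olfr362 (0.44), Sirt1 (0.20), Prkaa2 (0.27), Nr1i2 (-0.084), Hspb1 (0.022), Arntl (1.56), Dbp (-0.58) and Rpl36a (0.0022). Prkaa2, which was near 0, was also above it with the slide as a random block (0.053) and without Ctrl 1 (0.0061), Ctrl 3 (0.029) or RS 2 (0.022), and Prkaa1 was -0.02 with scaling to the median. Leaving out 1 array, Prkaa2 ran from -0.089 to 0.029, Elovl6 from -1.38 to 0.15 (without RS 1), and Arntl from -1.10 to 0.46 and Dbp from -0.40 to 1.1 (0.46 and -0.40 without Ctrl 2). The cause was not tested.

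Counts of probes moved by over 1.5 times as follows. At an unadjusted p under 0.05, 1421 were lower with normexp, 1835 with the slide as a fixed block and 473 with the slide as a random block, against 771, while 1003 were higher with scaling to the median and 1051 with the DJ and RS labels exchanged, against 1595. Of the probes well above background, 1914 lay wholly higher and 1327 wholly lower in RS, against 2072 lower with normexp and 1090 higher with scaling to the median, which also gave the median of -0.0527. The slide as a fixed block called 1 probe higher, and 17 for the difference between the starch and rice contrasts. Leaving out 1 array at a time gave 0 to 4 probes called higher, 0 to 1 called lower, 0 to 1 called for that difference, 1103 to 2310 higher and 635 to 970 lower at an unadjusted p under 0.05, 2740 to 4144 wholly higher and 2354 to 3036 wholly lower, where 3 against 2 separate more often, and a median of -0.00865 to 0.0401. Livers of the same number did not deviate together (correlations of 0.027, 0.273 and -0.194), so the numbers were not taken as pairs. With the replicate number as a block, 0 probes were called and 1556 were higher and 813 lower at an unadjusted p under 0.05. Signal over background limits the dim genes, whose levels rested most on RS 3.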

Other observations

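A bright probe with no gene name here, A_66_P101646, followed the pattern of Pde5a over the 12 arrays and was chosen after its values were seen. Its log2 levels were 8.64, 8.56 and 8.48 in the Ctrl livers and 6.73, 7.26 and 8.05 in the RS livers. They were 8.67, 6.82 and 7.88 in the DJ livers and 8.53 to 8.67 in the DJ526 livers.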
